A study of Caenorhabditis elegans with 45 samples.

Results

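The mir-44 seed family of Caenorhabditis elegans was taken as 4 microRNA (miRNA) genes, mir-44, mir-45, mir-61 and mir-247. They were chosen by name from the 257 miRNA genes of the count table. Small RNA was sequenced from whole animals kept at 20 °C and collected 45 hours after feeding, as mid L4 larvae. There were 15 genotypes with 3 libraries each, labelled A, B and C, which gave 45 libraries. Each of 14 mutants carries 1 base change in let-7a, at 1 of the positions 9 to 22 counted from the 5′ end of the mature miRNA, and is named by that change. The alleles are let-7(ma453) for U9G, ma454 for A10U, ma431 for G11U, ma448 for G12U, ma432 for U13A, ma433 for U14A and ma434 for G15A. They are ma449 for U16G, ma450 for A17U, ma435 for U18A, ma436 for A19U, ma452 for G20C, ma456 for U21A and ma437 for U22A. The wild-type strain and every mutant carry maIs105 on chromosome V, known as a col-19::GFP reporter of adult skin fate. The labels of 6 mutants (G11U, G12U, U13A, U14A, G15A and U16G) also list the duplication mnDp1(umnIs25), and those of the other 8 mutants and the wild type do not. Each genotype is 1 strain, and its libraries are not said to come from separate cultures, so p-values measure the spread between these libraries alone.

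A miRNA is cut from a hairpin and guides an Argonaute protein to messenger RNAs that pair with its seed, the stretch near its 5′ end. miRNAs with the same seed can share targets and are grouped as a family. In C. elegans, mir-61 is known as a direct target of LIN-12/Notch signalling in vulval precursor cells, where it lowers vav-1 and so helps set the fate that lateral signalling specifies. The mature guide strands of mir-44 and mir-45 are known to be identical, so a read of that strand cannot be placed at one of these genes by its sequence. The table has 1 row per gene, and which arm of the hairpin a read came from is not known.

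The annotated hairpins lie on 3 chromosomes (Ensembl annotation of assembly WBcel235; the build used for counting is not given in the sources used here). mir-44 (WBGene00003272) is at chrII:11890023-11890118 on the plus strand. mir-45 (WBGene00003273) lies 8983 bases away at chrII:11880944-11881039, on the minus strand. mir-61 (WBGene00003289) is at chrV:11770060-11770156 on the minus strand. mir-247 (WBGene00003341) is at chrX:4756971-4757068 on the plus strand. mir-44, mir-61 and mir-247 overlap no other annotated gene, whereas mir-45 lies across an exon of the non-coding RNA ZK930.13, which is annotated on the opposite strand. Each member but mir-45 has a close neighbour on its own strand from the mir-2 seed family. mir-43 lies 15 bases from mir-44, mir-250 lies 44 bases from mir-61, and mir-797 lies 40 bases from mir-247.

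miRNA reads per library ranged from 1009758 in G15A replicate A to 3574420, with a median of 2146242. let-7a in the form its genotype encodes made up 100% of let-7a reads in the wild-type libraries and 62.9% to 100% in the mutant libraries. Library U9G replicate B stood apart from the rest. Its correlation with the median library was 0.868, and the lowest among the other libraries was 0.981, so results are given with and without it. Levels below are normalised CPM, which are shares of the miRNA reads of a library scaled by TMM factors. In whole animals, fewer cells of a type and less miRNA per cell cannot be told apart.

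mir-61 supplied nearly all reads of the family, mir-44 and mir-247 were minor members, and mir-45 was listed at 0. The members together took 1.31% to 3.63% of the miRNA reads of a library, with a median of 2.31%. Of these family reads, mir-61 held 95.4% to 99.4%. The mir-61 level was lowest at 14577 in U9G replicate B, had a median of 23439 and was highest at 32132 in G15A replicate B, and the gene ranked between 8 and 21 in each library. mir-44 ran from 73.7 to 888 with a median of 168, and mir-247 ran from 70.1 to 500 with a median of 214. The annotated hairpins are 96 to 98 bases long, so dividing by length keeps this order. The ratio of mir-61 to mir-44 reads ran from 32.2 to 292 across libraries, with a median of 139. How well each miRNA is captured in a library was not tested.

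mir-45 had 0 reads in each of the 45 libraries. A count of 0 allows up to 3 reads, which is 0.839 to 2.97 CPM depending on the library, for counting error alone. mir-42 and mir-43, which lie beside mir-44, were also at 0 in all 45 libraries, and both overlap an exon of the non-coding RNA ZK930.12 on the opposite strand. Of the 43 miRNA genes of the table that overlap an exon annotated on the opposite strand, 33 were at 0 everywhere, or 76.7%. Among the 214 without such an overlap, 28 were at 0, or 13.1%. lin-4, a developmental timing miRNA of larvae, is also among the genes at 0, so a 0 in the table is not read here as absence of the miRNA. The annotation and strand setting used for counting are not given in the sources used here, and the part of this overlap in the zeros was not tested. The mir-44 row may hold mir-45 reads or lack reads that were not placed at either gene.

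**Figure D1:**
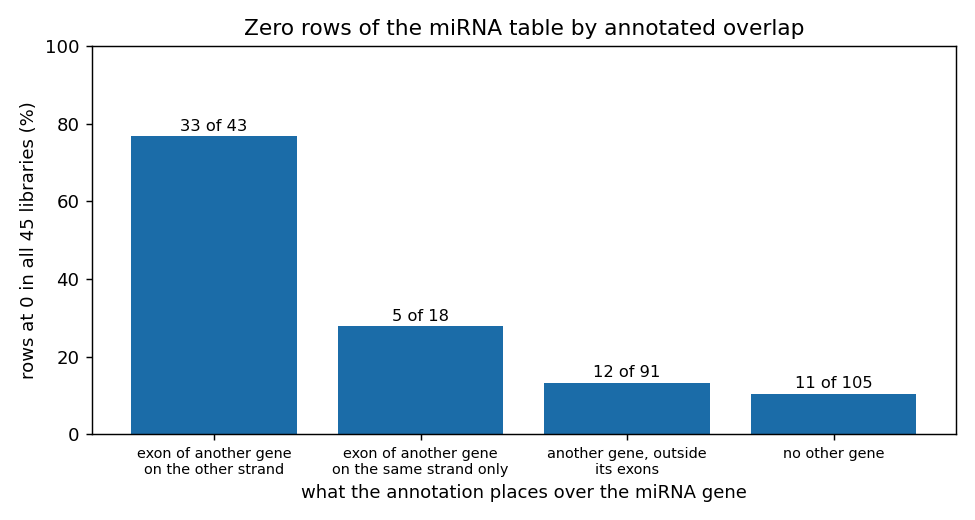
Bars give the percentage of miRNA genes with 0 reads in all 45 libraries (y axis), by what the annotation places over the gene (x axis). Under an exon on the opposite strand, the class of mir-45, 33 of 43 genes were at 0, against 11 of 105 genes that overlap no other gene.

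**Figure D2:**
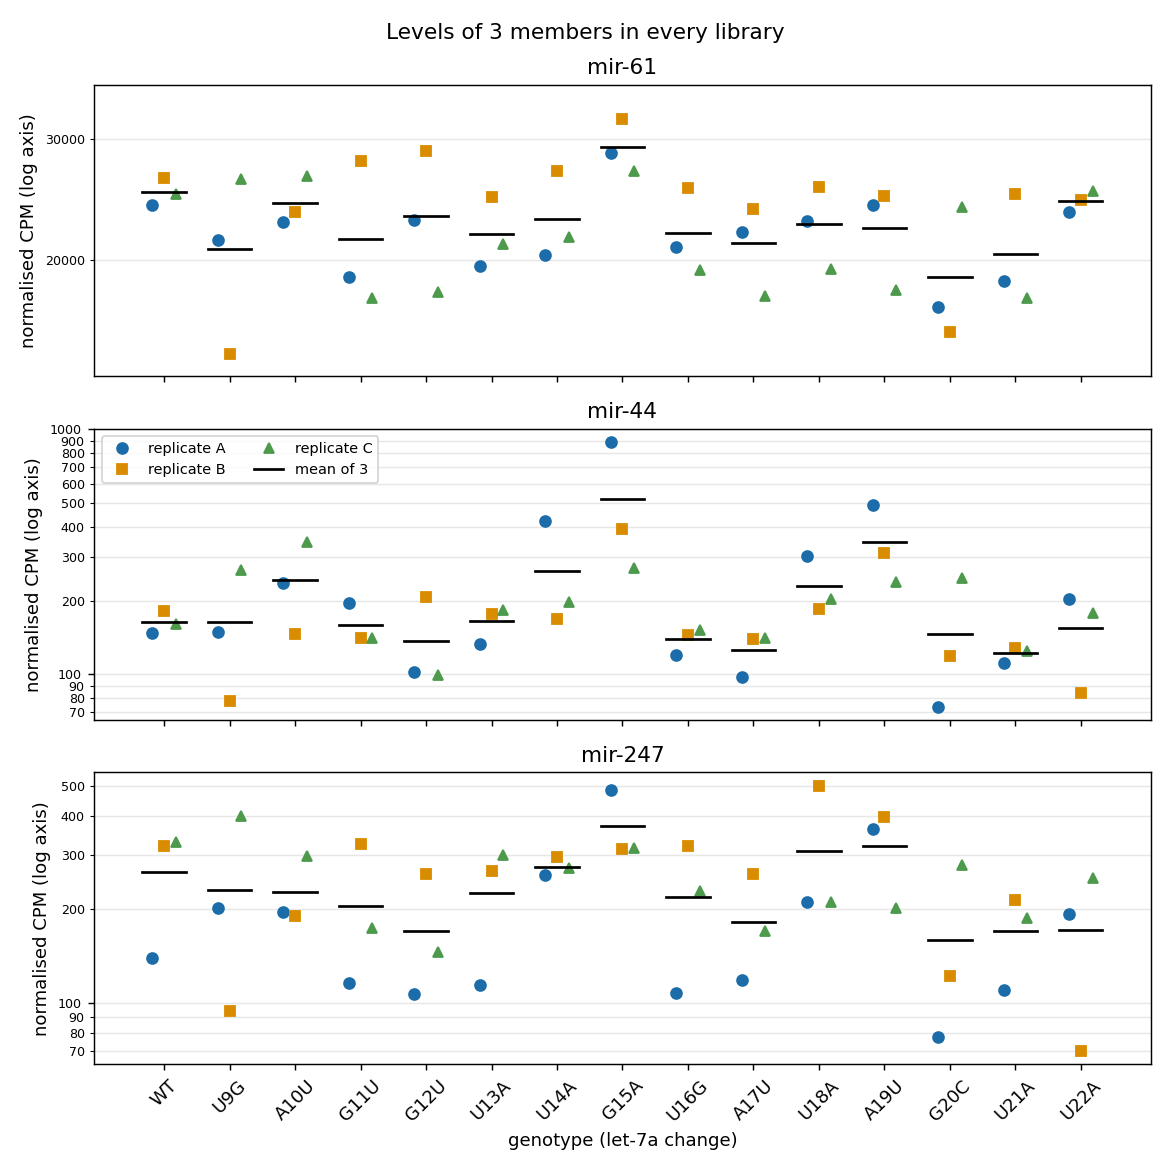
Normalised CPM on log axes for mir-61, mir-44 and mir-247 in every library, by genotype; symbols mark replicates A, B and C, and bars mark the mean of 3. G15A has the highest mean of each member, and its replicate A has the highest mir-44 value, at 888.

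mir-44 was highest in G15A. It had been called in G15A in an earlier analysis of these data, so its values and p-values there are descriptions and not independent evidence. The wild-type libraries (A, B, C) held mir-44 at 147, 181 and 161 normalised CPM, from 297, 320 and 205 reads. G15A was at 888, 392 and 273, from 921, 982 and 745 reads, and its lowest library lay above the highest wild-type one. The means were 163 ± 16.9 and 518 ± 326 (SD, n = 3 each). The spread in G15A was wide, with replicate A far above B and C, and replicate A is also the library with the fewest miRNA reads of all 45. The log2 change was 1.66 (SE 0.455), a 3.17-fold higher level, with an adjusted p of 0.0555 in edgeR's quasi-likelihood test (Benjamini-Hochberg), just short of the threshold of 0.05. Without U9G replicate B the change was 1.69 (SE 0.429) and the edgeR adjusted p was 0.0159, which passed. Without G15A replicate A the change was 1.03 and the adjusted p was 0.45. The exact two-sided permutation test of the 6 libraries gave p = 0.1, the smallest that 3 against 3 allow. G15A against wild type called 0.769% of the 130 miRNAs tested, and 3.73% of 134 without U9G replicate B.

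A19U had the next highest mir-44 level, and U14A, A10U and U18A followed with means above the wild type that did not pass. In A19U the libraries were at 489, 314 and 237 normalised CPM, all above the wild type, with a mean of 347 ± 129 (SD, n = 3). The log2 change was 1.09 (SE 0.448, edgeR unadjusted p = 0.0206, adjusted p = 0.377). U14A was at 424, 168 and 198, with a mean of 263 ± 140 (SD, n = 3) that rests largely on replicate A. The means in A10U and U18A were 243 ± 100.5 and 230 ± 63.9 (SD, n = 3 each). Replicate A was the highest mir-44 library in 6 of 15 genotypes, among them G15A, A19U, U14A and U18A. It was the lowest in 6, the wild type among them. The lowest mean was 122 ± 8.83 in U21A (SD, n = 3), where all libraries lay below the wild type and the log2 change was -0.42 (edgeR adjusted p = 0.981). When genotypes were put in order of mean mir-44 level, 13 of the 14 adjacent pairs overlapped in their library ranges. mir-44 libraries did not overlap those of the wild type in 5 mutants, higher in G15A, U18A and A19U and lower in A17U and U21A. Such a rise was seen for 9.23% of the miRNAs tested in G15A, 6.92% in U18A and 8.46% in A19U, and such a fall for 5.38% in A17U and 4.62% in U21A. Without U9G replicate B, U18A overlapped the wild type.

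mir-44 passed the test of a difference across the genotypes, and mir-61 and mir-247 did not. The test includes the G15A libraries, in which mir-44 had been called before. Its result for mir-44 is therefore a description and not independent evidence. In edgeR's F test over the 15 genotypes the adjusted p of mir-44 was 0.00327, and 15.4% of the 130 miRNAs tested passed. It was 0.00253 without U9G replicate B, where 15.7% passed, and 0.0663 without G15A replicate A, where the call was lost. Over the 14 mutants alone 16.2% of the miRNAs passed, mir-44 among them (edgeR adjusted p = 0.00265, and 0.0507 without G15A replicate A). The adjusted p was 0.752 for mir-61 and 0.752 for mir-247 in the same F test. The log2 SD of mir-44 was 0.564 within genotypes, over single libraries, and 0.565 among genotype means, each of 3 libraries. A mean of 3 libraries varies less than a single library even where genotypes do not differ, so these SDs are not directly comparable.

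mir-61 varied less, and no mutant passed the test. The wild-type libraries were at 24020, 26300 and 24929 normalised CPM, with a mean of 25083 ± 1148 (SD, n = 3). G15A was at 28604, 32132 and 26905, with a mean of 29214 ± 2666 (SD, n = 3) and all libraries above the wild type. The log2 change in G15A was 0.22 (SE 0.211, edgeR adjusted p = 0.803). The change was below 0 in the other 13 mutants, which all share the same 3 wild-type libraries. It was lowest in G20C, at -0.41 (edgeR adjusted p = 0.99), with a mean of 18855 ± 4403 (SD, n = 3). The libraries of G20C ran from 15662 to 23878 and lay below the wild type, as did those of A17U. Such a fall was seen for 6.15% of the miRNAs tested in G20C and 5.38% in A17U, and such a rise for 9.23% in G15A. Without U9G replicate B, the mir-61 libraries lay below the wild type in 5 mutants in place of 2. Such a fall was then seen for 7.46% of the miRNAs tested in U13A, 4.48% in A17U, 5.97% in U18A, 6.72% in A19U and 3.73% in G20C. The log2 SD of mir-61 was 0.246 within genotypes, over single libraries, and 0.156 among genotype means of 3 libraries, which are not directly comparable. Replicate B was the highest of the 3 libraries in 11 of 15 genotypes.

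mir-247 also had its highest mean in G15A and its lowest in G20C, within a wide spread of libraries. The wild type was at 140, 320 and 330 normalised CPM, with a mean of 263 ± 107 (SD, n = 3). G15A was at 483, 314 and 314, with a mean of 370 ± 97.7 (SD, n = 3), and its range overlapped that of the wild type. The log2 change was 0.49 (SE 0.53, edgeR adjusted p = 0.852). In G20C the mean was 159 ± 105 (SD, n = 3) and the log2 change was -0.73 (edgeR adjusted p = 0.99). Replicate A was the lowest of the 3 libraries in 10 of 15 genotypes, the wild type among them. The log2 SD was 0.694 within genotypes, over single libraries, and 0.406 among genotype means of 3 libraries, which are not directly comparable. No mutant's mir-247 libraries stood clear of the wild type.

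**Figure D3:**
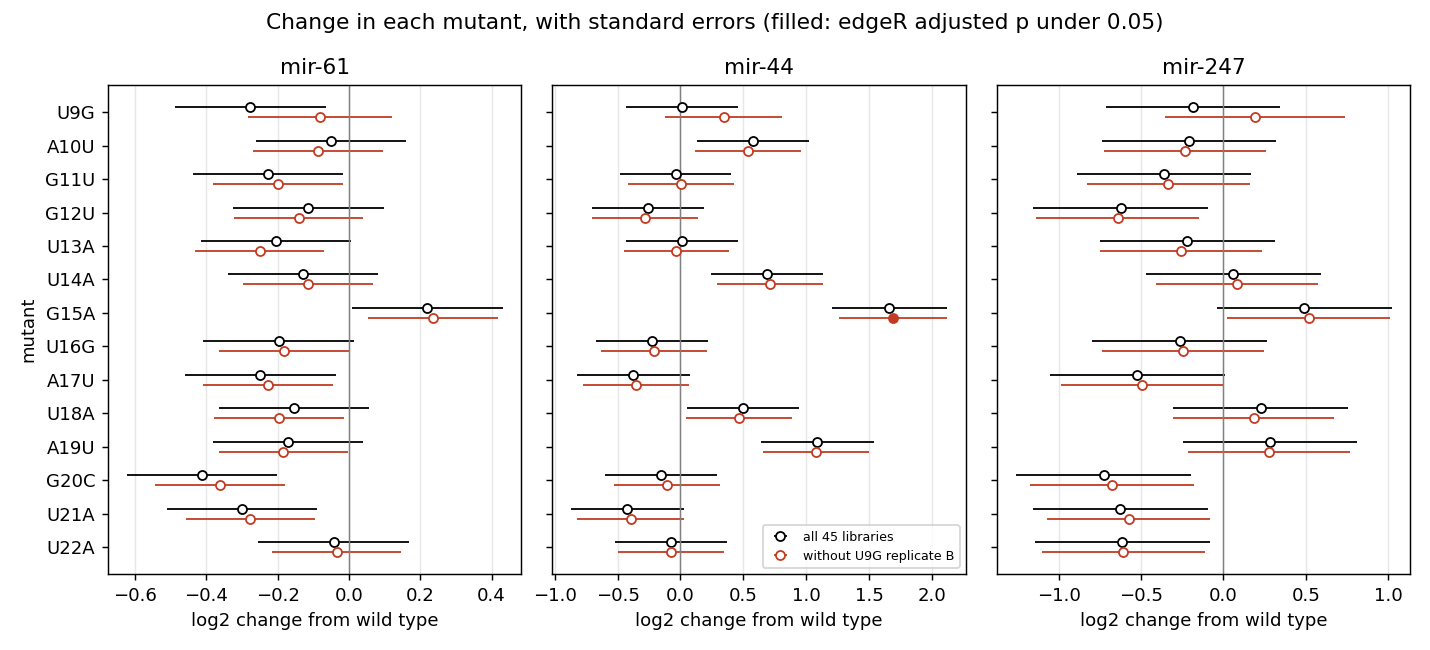
Log2 change from wild type (x axis, a different range in each panel) of mir-61, mir-44 and mir-247 in each mutant (y axis), with bars of 1 standard error. mir-44 in G15A without U9G replicate B, at 1.69, is the filled point, past the edgeR threshold.

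Over the 42 tests of a member in a mutant, edgeR made 0 calls at an adjusted p under 0.05, against 1.43% over all miRNAs and mutants. At an unadjusted p under 0.05 there were 2, both of mir-44, in G15A and A19U, against 6.21% over all miRNAs and mutants. DESeq2 made 1 call, against 1.76% over all miRNAs and mutants. Without U9G replicate B edgeR made 1, against 1.65%. Both calls were mir-44 in G15A. The median change of the 3 measured members was 0.49 in G15A, with 3 of 3 above 0, beside a median of 0.0091 over the 130 miRNAs tested. G15A was the 1 mutant with all 3 above 0, and in 7 of 14 mutants, which share the wild-type libraries, 0 of 3 were above 0. The lowest medians were -0.42 in U21A and -0.41 in G20C. For the mean of the 14 mutants against the wild type, the change was 0.21 for mir-44, -0.16 for mir-61 and -0.24 for mir-247, with an edgeR adjusted p of 0.996 for each. That test called 0 of the 130 miRNAs, and 5.38% had an unadjusted p under 0.05.

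The ratio of mir-44 to mir-61 lay above the wild-type libraries in each G15A library. mir-44 made up 1.72% ± 1.08 of family reads in G15A and 0.638% ± 0.0347 in the wild type (SD, n = 3 each). The G15A libraries were at 2.96%, 1.19% and 0.993%, and without replicate A their mean was 1.09%. It made up 1.49% ± 0.410 in A19U (SD, n = 3). The log2 ratio of mir-44 to mir-61 was -6.00 in G15A and -7.27 in the wild type, without overlap, a difference of 1.27 with an exact permutation p of 0.1. In A19U it was -6.06, also without overlap, a difference of 1.21 with the same exact permutation p. The log2 ratio of mir-44 to mir-247 overlapped the wild type in G15A and in A19U. Its differences were 0.93 and 0.70, with an exact permutation p of 0.2 for each. The share of other miRNA pairs whose ratio stands clear of the wild type was not computed. The total family level followed mir-61, at 30102 ± 2675 normalised CPM in G15A and 25509 ± 1249 in the wild type (SD, n = 3 each).

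Strains labelled with the duplication and those without it did not pass the test in any member. Over 6 strains against 8, edgeR's log2 difference was 0.16 for mir-44 (adjusted p = 0.812), 0.13 for mir-61 (adjusted p = 0.447) and 0.11 for mir-247 (adjusted p = 0.812). Without U9G replicate B it was 0.081, 0.070 and 0.0080 (edgeR adjusted p = 0.905, 0.734 and 0.986). The means of the strains' log2 levels differed by 0.18, 0.098 and 0.18, with exact permutation p of 0.599, 0.267 and 0.438. In edgeR with all libraries, 0 of 137 miRNAs passed, with 15 at an unadjusted p under 0.05 (10.9%). G15A carries this label and the wild type does not, so the label and the let-7 change cannot be told apart in that comparison. The mean mir-44 level of the other 5 labelled strains ran from 137 in G12U to 263 in U14A, and that of G15A was 518. By library, U14A replicate A, at 424, lay above G15A replicates B and C, at 392 and 273. The part of the duplication in the mir-44 level of G15A was not tested.

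Of the neighbouring genes of the mir-2 seed family, mir-250 and mir-797 were tested and did not pass in any mutant. mir-43, beside mir-44, was at 0 in all 45 libraries and was not tested. In G15A the log2 change was -0.06 for mir-250, beside mir-61 (edgeR adjusted p = 0.988), and 0.46 for mir-797, beside mir-247 (edgeR adjusted p = 0.878). For mir-2 itself it was -0.06 (edgeR adjusted p = 0.988). Median levels were 1655 normalised CPM for mir-250, 69.3 for mir-797 and 625 for mir-2. In U9G, mir-2 had a log2 change of 1.18 with an edgeR adjusted p of 0.0536, and this rests on replicate B, at 3196 against 418 to 998 in the other 44 libraries. Without that library the change was -0.12 (edgeR adjusted p = 0.988). In the same library mir-61, at 14577, and mir-250, at 325, were below the other 44 libraries, mir-797, at 277, was above them, and mir-44 and mir-247 lay within their range.

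Over the 15 genotype means without U9G replicate B, mir-44 and mir-247 were alike in pattern although they lie on different chromosomes. The points share the sequencing depth and the composition of their libraries, and the correlations are descriptions. mir-230 was the miRNA most like mir-44, with Pearson's r = 0.908 and Spearman's rho = 0.889 (n = 15). mir-247 came next (r = 0.891, rho = 0.871), then mir-797 (r = 0.806, rho = 0.725). Without G15A and A19U, r with mir-44 was 0.862 for mir-230, 0.834 for mir-247 and 0.702 for mir-797. For mir-247, the most alike were mir-230 (r = 0.905), mir-44 and its neighbour mir-797 (r = 0.887, rho = 0.857). Within genotypes, over the deviations of 44 libraries from their genotype means, r was 0.748 between mir-247 and mir-797. For mir-247 it was 0.553 with mir-44, 0.575 with mir-61 and 0.537 with mir-2. With mir-230 it was 0.321 for mir-44 and 0.381 for mir-247. Over all 45 libraries, replicate A was lowest in 10 of 15 genotypes for mir-247, 11 for mir-797 and 13 for mir-2. The deviations were not adjusted for the letter, and its part in these values was not tested. For mir-61 the most alike were mir-229 (r = 0.79), mir-254 (r = 0.77) and mir-228 (r = 0.728). Without G15A and the wild type these fell to 0.426, 0.712 and 0.355. mir-61 and its neighbour mir-250 had r = -0.236. With the other members, mir-61 had r = 0.64 for mir-44 and 0.604 for mir-247. Without G15A and the wild type these were 0.376 and 0.347. mir-250 had r = -0.663 with mir-44 and -0.605 with mir-247.

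**Figure D4:**
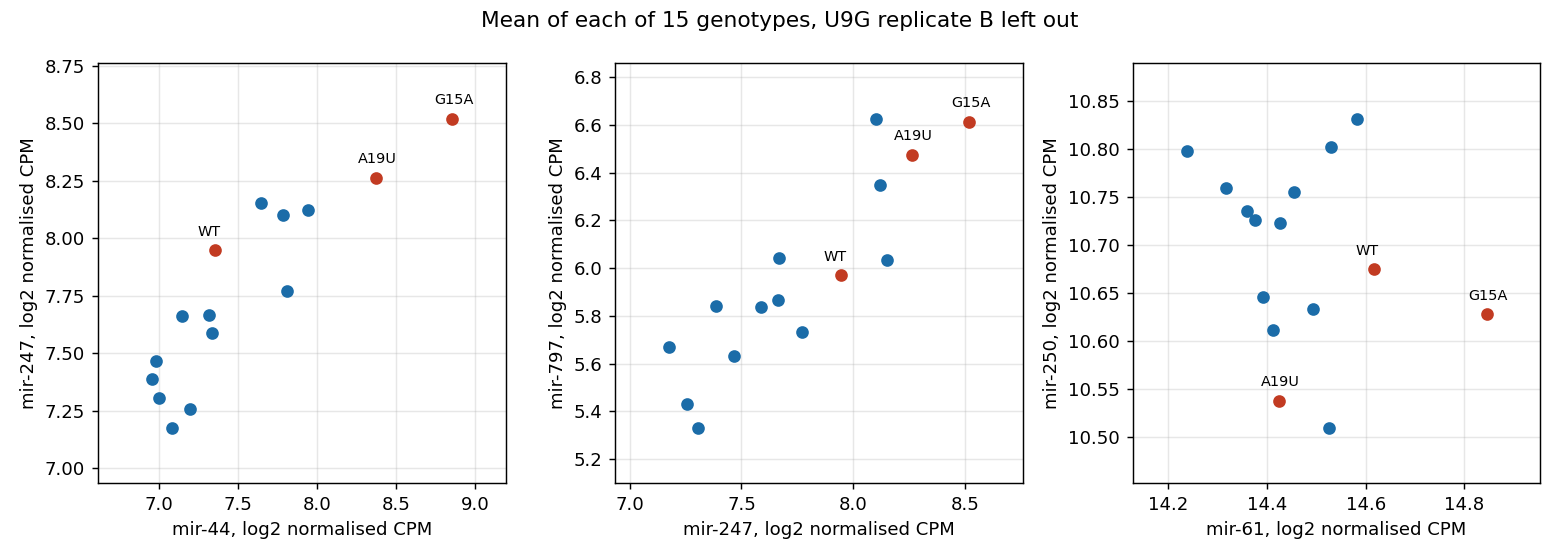
Mean log2 normalised CPM of 15 genotypes without U9G replicate B, 1 point a genotype, for mir-44 with mir-247 (left), mir-247 with mir-797 (middle) and mir-61 with mir-250 (right). The points rise together for mir-44 and mir-247 (r = 0.891) and for mir-247 and mir-797 (r = 0.887), with G15A and A19U at the upper end of mir-44, and show little relation for mir-61 and mir-250 (r = -0.236).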

How the data were processed

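Read counts per miRNA gene, and let-7a counts by form, were deposited by the authors. Per the labels, libraries were made with the NEBNext small RNA kit, and the submitters' processing notes name cutadapt 1.9, Bowtie2 2.3.4.3, Subread 1.6.2 and featureCounts, with no role. The let-7 row was replaced by the count of the form each genotype encodes. Counts were fitted in edgeR 4.0.16 (R 4.3.3), with TMM, filterByExpr by genotype, 1 quasi-likelihood fit of the 45 libraries with 1 coefficient per genotype and Benjamini-Hochberg adjustment within each comparison over all miRNAs tested, at 0.05. Log2 levels used a prior count of 2 in the correlations over genotype means and within genotypes and in the replicate-letter deviations. Log2 SDs, strain means, permutation tests and ratios used no prior count. Duplication labels were compared on counts summed per strain. DESeq2 1.42.0 was an alternative. The fit was also run on simulated counts in which all miRNAs shared the same dispersion. That run does not test the calls given here. Hairpin positions came from the Ensembl annotation of WBcel235, matched by gene identifier.

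The members, their neighbours and the mir-2 seed family, and the tests, were chosen with earlier results of these data known. Genes named are these, the 3 most alike by Pearson's r and each member's highest and lowest change; lin-4 was added after its values were seen. The labels name no shared batch for the replicate letters. Deviations of same-letter mutant and wild-type libraries from their group means correlated above 0.1 for all 3 letters in 9 of 14 mutants, G15A not among them; the reported fit has no block, and the fit with the letter as a replicate block is an alternative.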

Additional observations from a re-analysis of the deposited data

Results flagged for a closer look

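The level of mir-61 in G15A lay apart from those of the other strains labelled with the duplication. Its mean was 14.83 in log2 normalised CPM, and the gap to the next of the 6 strains was 0.75 of their whole range, above Dixon's critical value. Chance flags about 1 in 20 groups, and 6 groups of strains were examined, of which 1 was flagged. In edgeR the change of mir-61 from the wild type in G15A did not pass (adjusted p = 0.803).

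The changes of mir-44 from the wild type differed among the 14 mutants, with an edgeR adjusted p of 0.00265 for the difference itself and 0.00196 without U9G replicate B. G15A had the highest change, 1.66, and U21A the lowest, -0.42. mir-44 had been called in G15A in an earlier analysis of these data, so this test is not independent evidence. Without G15A replicate A the adjusted p was 0.0507, which did not pass, and the change in G15A was 1.03, below the 1.08 of A19U.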

How the results depend on the processing

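The count of member tests past the threshold, 0, and the count of family members called in G15A, 0, each became 1 with DESeq2 size factors, with at least 10 counts in every library, with DESeq2's own test and with the other 13 mutants as the reference. In G15A it was also 1 without U9G replicate B and with the replicate block together. Leaving out each library in turn, both counts ran from 0 to 1, and the count of members differing across the genotypes ran from 0 to 1. The single call was mir-44 in G15A in 17 of 55 settings, and there was none in 38. Against the wild type, mir-44 in G15A ranged from 1.59 to 1.78 over the alternatives (edgeR or DESeq2 adjusted p from 0.00999 to 0.1). Against the other 13 mutants, a different comparison, it was 1.56 (edgeR adjusted p = 0.000364). With 1 library left out, its change from the wild type ranged from 1.03 to 1.91 (edgeR adjusted p from 0.0159 to 0.45). It was 1.86 without G15A replicate B and 1.91 without replicate C, which passed (adjusted p = 0.0477 and 0.0329). With the replicate block alone it was 1.62 (edgeR adjusted p = 0.0503), and the block alone changed no call. No member's change in G15A, mir-44 in U21A or mir-61 or mir-247 in G20C reversed under these settings. In the fit without U9G replicate B, changes in U9G itself, none of them called, turned sign for mir-247 (-0.19 to 0.19), mir-250 (-0.33 to 0.13), mir-797 (0.97 to -0.08) and mir-2 (1.18 to -0.12). The cause of these changes was not tested. Sums of mir-44 and mir-45 were not run, since mir-45 is at 0, and the block was not fitted to the strain sums. The fewest reads in a library were 126 for mir-44 and 151 for mir-247.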
